A study of Mus musculus with 10 samples.

Results

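The dystrophin-glycoprotein complex was described here through 8 genes, Dmd, Utrn, Sgca, Sgcb, Sgcd, Dag1, Dtna and Sspn, which were chosen by name from the subunits of the complex. The 8 genes were taken from 25700 genes listed per mouse, and all 8 were among the 14410 genes that passed a filter on low counts. Reads per gene were counted in the tibialis anterior (TA) muscle of 10 male C57BL/6 mice aged 12 weeks, taken 6 days after the muscle was injected with cardiotoxin (CTX), a snake venom toxin that destroys myofibers and sets off regeneration. There were 5 mice titled Pax7Cre, whose genotype was labelled wild type, and 5 mice titled miR-501KO, whose genotype was labelled miR-501 -/-. The series text gives the second group as Pax7Cre mice with the floxed X-linked allele miR-501fl/Y, so that both groups carried the Cre driven by the Pax7 promoter, which acts in muscle stem cells and the fibers formed from them. Each sample was the muscle of 1 mouse, and uninjured muscle was not analysed here. The Mir501 gene was not among the genes listed, and the deletion was therefore not checked in these counts.

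The complex links the actin cytoskeleton of the myofiber to laminin outside the cell and protects the membrane during contraction. Dystrophin (Dmd) binds actin and, at its other end, the membrane protein beta-dystroglycan. Alpha- and beta-dystroglycan are cut from 1 precursor encoded by Dag1, and alpha-dystroglycan holds laminin through its sugar chains. Alpha-, beta- and delta-sarcoglycan (Sgca, Sgcb, Sgcd) form a membrane subcomplex, and sarcospan (Sspn) is a 4-pass membrane protein beside it. Alpha-dystrobrevin (Dtna) binds dystrophin inside the fiber and carries syntrophins. Utrophin (Utrn) is the autosomal homologue of dystrophin, which is found along the membrane of regenerating fibers and at the neuromuscular junction of mature ones. Loss of dystrophin causes Duchenne muscular dystrophy, and loss of a sarcoglycan causes limb-girdle muscular dystrophy.

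The deleted miRNA and the matches to its seed in the member genes are shown first, because matches to a seed in 3′ UTRs are the usual sites of miRNA action. The 22-base miR-501-3p lies on the minus strand at chrX:7241270-7241291, and its seed, bases 2 to 8, is in capitals. In the RefSeq sequences for GRCm38.p6 the seed AUGCACC is shared with miR-500-3p, at chrX:7237695-7237716 on the same strand, whose precursor is a separate gene.
mmu-miR-501-3p: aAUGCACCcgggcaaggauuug
mmu-miR-500-3p: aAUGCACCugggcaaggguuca
The DNA match to the seed, GGTGCAT, was searched in every 3′ UTR of GENCODE release M21 (GRCm38), and 2 of the 8 genes held it. Of 14072 tested genes with a 3′ UTR, 1159 (8.24%) held at least 1 match. In Sgcb the match lies at chr5:73635486-73635492 on the minus strand and starts at base 3 of the 2746-base 3′ UTR. In Utrn it lies at chr10:12750513-12750519, also on the minus strand, in a single transcript of 648 bases that is annotated as subject to nonsense-mediated decay, and not in the 3′ UTR of a full-length transcript. The match is in capitals in both stretches, and a match of letters does not show that the miRNA binds.
Sgcb: acGGTGCATccgcagggctc
Utrn: ggttccacaagGGTGCATgccttaaacaa

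The 150 bases before the first transcribed base are given for 3 member genes, 2 that rose with the mature fiber score described below (Dmd and Sgca) and 1 that was not called on it (Dag1). They are RefSeq sequences for GRCm38.p6 at chrX:82948720-82948869 (plus strand), chr11:94976328-94976477 (minus strand) and chr9:108263959-108264108 (minus strand). Capitals mark an E-box, CANNTG, the core bound by myogenic regulatory factors such as myogenin, and in Dmd also a CArG box, the binding motif of serum response factor.
Dmd: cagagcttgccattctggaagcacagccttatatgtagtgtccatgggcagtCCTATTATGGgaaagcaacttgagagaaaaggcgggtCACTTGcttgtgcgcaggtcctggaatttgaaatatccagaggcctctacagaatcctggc
Sgca: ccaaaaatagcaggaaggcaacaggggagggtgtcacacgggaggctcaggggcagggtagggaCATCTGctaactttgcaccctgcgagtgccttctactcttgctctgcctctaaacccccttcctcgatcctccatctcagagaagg
Dag1: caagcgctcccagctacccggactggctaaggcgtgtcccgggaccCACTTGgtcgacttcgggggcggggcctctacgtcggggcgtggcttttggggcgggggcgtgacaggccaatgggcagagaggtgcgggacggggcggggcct
The Dmd stretch holds a CArG box from base -98 to -89 and an E-box from -61 to -56, counted back from the first transcribed base, and a MEF2 motif begins further upstream at -244. The Sgca stretch has an E-box from -86 to -81, and the Dag1 stretch has one from -104 to -99. Over 32851 promoter windows of 300 bases, 72.3% held an E-box, 1.63% a CArG box and 3.19% a MEF2 motif, each searched on both strands. The CArG box and the MEF2 motif were found in 1 of the 10 windows searched for the member genes, the first window of Dmd, and no window of Dtna was searched. E-boxes were counted in each window, with 1 number per window. Among the genes that rose with the mature fiber score they numbered 3 and 0 (Dmd), 2 (Sgca), 2 (Sgcd) and 0 (Sgcb). Among those not called they numbered 7 (Utrn), 1 and 1 (Dag1), and 0 and 1 (Sspn). Whether these numbers follow the score was not tested. These letters are descriptions and show no binding.

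Between 18609222 and 24753258 reads were counted per mouse, and each member gene had at least 301 reads in every mouse. Values are given as CPM, counts that edgeR scaled to the size of each library with TMM factors. The mice of a genotype are separate animals, and the spread between mice of 1 genotype was larger than counting noise in every pair. The biological coefficient of variation over all genes was 0.149. Pax7Cre mice 2 and 4 stood at opposite ends of the variation between mice, and the slopes, fold changes and correlations that changed most without them are also given without them.

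Dystrophin mRNA did not differ detectably between the genotypes. Dmd (ENSMUSG00000045103, chrX:82948870-85206141) had 69.2, 116, 83.9, 72.2 and 92.1 CPM in Pax7Cre mice 1 to 5 and 83.5, 73.1, 85.8, 104.6 and 88.7 CPM in miR-501KO mice 1 to 5. The highest values were those of Pax7Cre mouse 2 and miR-501KO mouse 4, and all miR-501KO mice lay inside the range of the Pax7Cre mice. The means were 86.7 ± 18.8 CPM and 87.1 ± 11.4 CPM (SD, n = 5 each), and the log2 fold change was 0.0079 with a 95% confidence interval from -0.29 to 0.31.

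Utrophin also lay in 1 range in both genotypes. Utrn (ENSMUSG00000019820, chr10:12382188-12869365) had 83.3, 97.3, 94.9, 99.8 and 109.6 CPM in Pax7Cre mice 1 to 5 and 101.1, 90.8, 108.3, 97.7 and 105 CPM in miR-501KO mice 1 to 5. The groups overlapped, with Pax7Cre mice at both the lowest and the highest value. The mean was 97.0 ± 9.47 CPM in Pax7Cre mice and 100.6 ± 6.79 CPM in miR-501KO mice (SD, n = 5 each), so that the log2 fold change was 0.053 with an interval from -0.13 to 0.23. It was 0.0029 without Pax7Cre mouse 1, the lowest mouse, and 0.10 without Pax7Cre mouse 5, the highest.

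The ratio of Utrn to Dmd reads within a mouse does not depend on the scaling between mice. It was 1.20, 0.839, 1.13, 1.38 and 1.19 in Pax7Cre mice 1 to 5 and 1.21, 1.24, 1.26, 0.935 and 1.18 in miR-501KO mice 1 to 5. Utrn had more reads than Dmd in all mice but Pax7Cre mouse 2 and miR-501KO mouse 4, the mice with the most Dmd in each genotype. The mean log2 ratio was 0.032 higher in miR-501KO mice (exact two-sided permutation test over the 10 mice, p = 0.762), and without Pax7Cre mouse 2 the difference was -0.076.

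Dystroglycan mRNA varied between mice but not detectably between genotypes. Dag1 (ENSMUSG00000039952, chr9:108204634-108263958) had 445, 474, 400.5, 562 and 596 CPM in Pax7Cre mice 1 to 5 and 463, 438, 512.5, 493 and 605 CPM in miR-501KO mice 1 to 5. High and low mice occurred in both genotypes, and mouse 5 was the highest in each. The means of 496 ± 81.4 CPM and 502 ± 64.1 CPM (SD, n = 5 each) gave a log2 fold change of 0.019, with an interval from -0.26 to 0.30.

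The 3 sarcoglycans overlapped between the genotypes. Sgca (ENSMUSG00000001508, chr11:94962791-94976327) had 75.2, 129, 60.4, 69.2 and 90.5 CPM in Pax7Cre mice 1 to 5 and 68.7, 83.5, 84.5, 97.4 and 93.2 CPM in miR-501KO mice 1 to 5. This was the widest range among the members, 2.14-fold from the lowest to the highest mouse, and both ends were Pax7Cre mice. The log2 fold change of Sgca was 0.011, with an interval from -0.37 to 0.39.

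Sgcb (ENSMUSG00000029156, chr5:73632749-73647790), which carries the seed match shown above, had 107, 131.6, 116, 103 and 117 CPM in Pax7Cre mice 1 to 5. The miR-501KO mice 1 to 5 had 106, 105, 109.1, 113 and 114 CPM, all inside the Pax7Cre range. The log2 fold change of -0.066 had an interval from -0.23 to 0.10 and was within the spread between mice. It was -0.014 without Pax7Cre mouse 2 and -0.10 without Pax7Cre mouse 4. Sgcd (ENSMUSG00000020354, chr11:46896253-47988969) had the fewest reads of the members, 301 to 442 per mouse, and stood at 14.9, 23.3, 16.7, 12.1 and 16.8 CPM in Pax7Cre mice 1 to 5 and 15.4, 14.7, 16.2, 21.0 and 16.7 CPM in miR-501KO mice 1 to 5. As for Dmd, Pax7Cre mouse 2 and miR-501KO mouse 4 were the highest of their genotypes, and the log2 fold change of Sgcd was 0.0043 with an interval from -0.33 to 0.34.

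Sarcospan was the steadiest member and alpha-dystrobrevin the most unequal in its spread. Sspn (ENSMUSG00000030255, chr6:145931641-145965223) had 68.3, 73.8, 73.2, 70.4 and 76.2 CPM in Pax7Cre mice 1 to 5 and 71.1, 68.2, 70.6, 71.1 and 73.0 CPM in miR-501KO mice 1 to 5, a 1.12-fold range. The standard deviation of its log2 CPM over the 10 mice, 0.050, ranked at the percentile 0.541 of all genes tested, that is, among the least variable. Its log2 fold change was -0.031, with an interval from -0.16 to 0.098.

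Dtna (ENSMUSG00000024302, on chromosome 18) had 124, 147, 104.3, 74.1 and 103 CPM in Pax7Cre mice 1 to 5 and 111, 110.3, 117, 118 and 115 CPM in miR-501KO mice 1 to 5. The miR-501KO mice lay close together in the middle of a wide Pax7Cre range, with an SD of 27.0 CPM in Pax7Cre and 3.63 CPM in miR-501KO mice, a ratio of 7.43. The log2 fold change of Dtna was 0.051, with an interval from -0.25 to 0.36. All 8 members had the larger SD in the Pax7Cre mice, as did 79.5% of all genes tested, and the difference in spread was not tested. Antisense genes overlap 90 bases of the Dtna exons and 69 bases of the Sspn exons on the other strand, and were not counted.

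**Figure D1:**
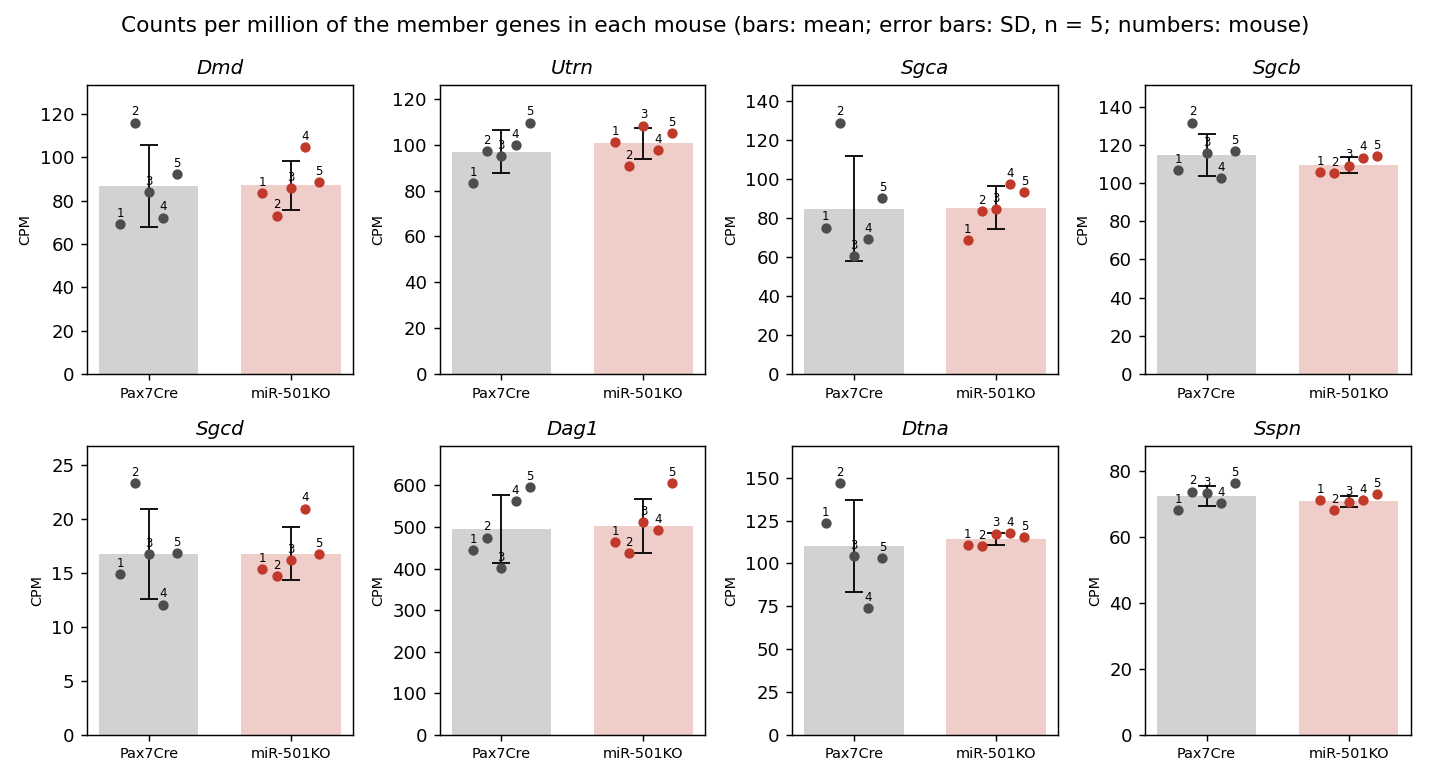
CPM (vertical axis) of the 8 member genes in each of 5 Pax7Cre (grey) and 5 miR-501KO (red) mice, with bars for the group means and error bars for the SD; the numbers are mouse numbers. The groups overlap for every gene, and Pax7Cre mouse 2 is the highest of all mice for Dmd, Sgca, Sgcb, Sgcd and Dtna.

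Over all genes, edgeR's quasi-likelihood test with Benjamini-Hochberg adjustment called 0 genes between the genotypes, 0% of the 14410 tested, and 0 of the 8 members. DESeq2's Wald test also called 0, and edgeR's likelihood ratio test called 19, none of them a member. At an unadjusted p under 0.05, 0 of the 8 members were higher or lower, beside 0.382% of all genes higher (55 genes) and 0.666% lower (96 genes) in miR-501KO mice. The lowest unadjusted p among the members was 0.414, for Sgcb, and the lowest by exact permutation over the mice was 0.381, for Sspn, where 5 mice against 5 allow 0.00794. The median log2 fold change was 0.0092 over the members and -0.0042 over all genes tested. The intervals of the members reached no further than 0.39 in either direction. Without Pax7Cre mouse 2 the log2 fold changes of Dmd, Sgca, Sgcd and Dtna were 0.13, 0.21, 0.15 and 0.17, and without Pax7Cre mouse 4 they were -0.051, -0.055, -0.095 and -0.063.

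**Figure D2:**
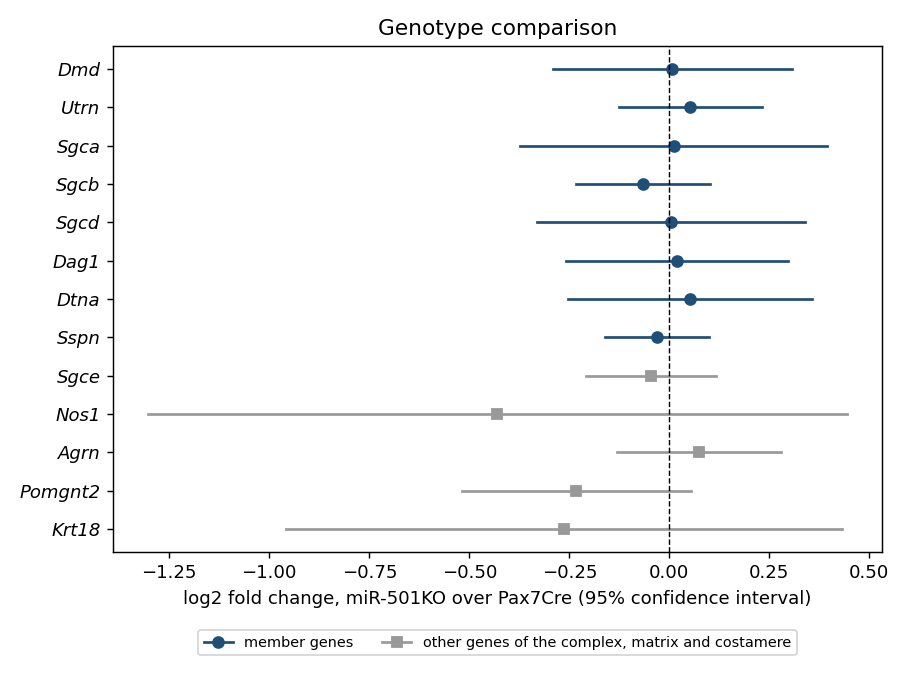
Log2 fold change of miR-501KO over Pax7Cre mice (horizontal axis) with 95% confidence intervals from edgeR for the 8 member genes (circles) and 5 other genes of the complex, its matrix ligands, its glycosylation and the costamere (squares). Every interval contains 0, and the widest is that of Nos1.

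Levels were compared between genes only per length, as CPM per kilobase of all annotated exons of a gene merged, with the mean and SD over the 10 mice. Dag1 stood at 78.5 ± 10.9 CPM per kilobase, followed by Sgca at 49.1 ± 11.2, Sgcb at 27.7 ± 2.08 and Sspn at 14.3 ± 0.500. Dtna at 6.64 ± 1.08, Utrn at 5.77 ± 0.467, Dmd at 3.65 ± 0.615 and Sgcd at 2.03 ± 0.388 CPM per kilobase were lower. Each gene exceeded the next in this order in all 10 mice, except Dtna and Utrn, whose order held in 8 of 10 mice and which were therefore not told apart. Utrn exceeded Dmd 1.58-fold per kilobase in the mean, and did so in every mouse of both genotypes. The merged exons of Dmd are 23801 bases and its longest transcript is 14910 bases, and for Dtna the lengths are 16930 and 6295 bases. With the length of the longest transcript, Dtna stood at 17.8 CPM per kilobase and changed places with Sspn at 15.9, while the other 6 genes kept their ranks. Utrn and Dmd then stood at 7.98 and 5.83 CPM per kilobase, so that the fold between them was smaller and depended on the length used.

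**Figure D3:**
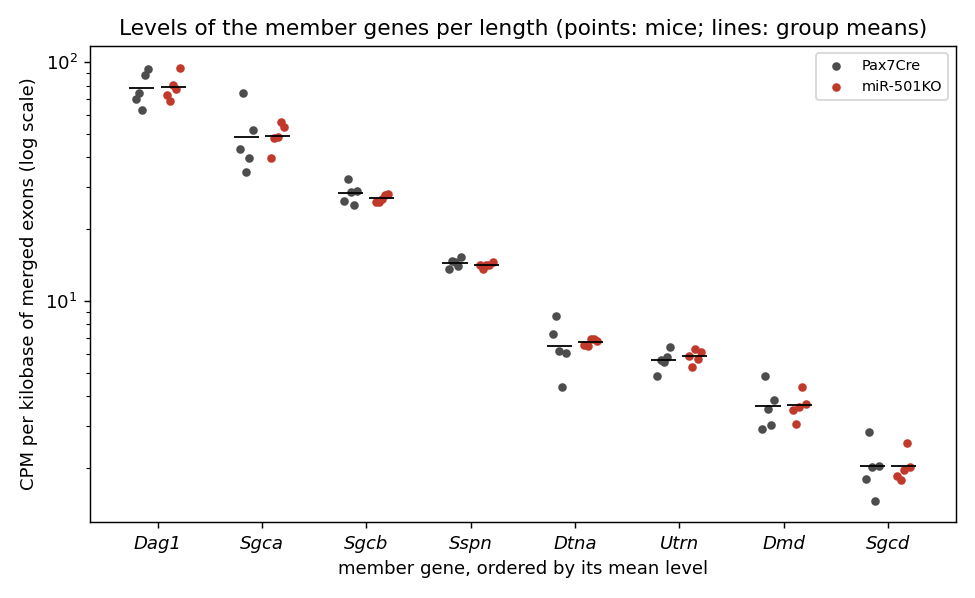
CPM per kilobase of merged exons (vertical axis, log scale) of the 8 member genes in each mouse, in the order of their mean level, with Pax7Cre mice in grey, miR-501KO mice in red and lines for the group means. Dag1 is highest at 78.5 and Sgcd lowest at 2.03 CPM per kilobase, and only Dtna and Utrn share a range in which their order changes between mice.

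The mice differed in how far their muscles carried mRNA of mature fibers, and 5 of the 8 members varied with it. A mature fiber score was taken for each mouse as the mean, over 24 markers such as Ckm (muscle creatine kinase) and Pvalb (the calcium buffer parvalbumin), of log2 CPM centred on the mean of the 10 mice. No member gene is in the score, but it was measured in the same libraries, so that its slopes describe variation between mice and not the effect of a treatment. It ran from -0.66 in Pax7Cre mouse 4 to 0.85 in Pax7Cre mouse 2, with miR-501KO mouse 4 second at 0.42, and the sum of the markers ran from 17836 to 47568 CPM in Pax7Cre and from 26182 to 35610 CPM in miR-501KO mice. In such bulk samples, fewer mature fibers and less of these mRNAs per fiber cannot be told apart.

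With genotype in the model, edgeR's quasi-likelihood test found that Dmd, Sgca, Sgcb, Sgcd and Dtna rose with the score and that 0 members fell. Over all genes outside the score, 11.1% rose and 6.29% fell. The slope, in log2 CPM per unit of the score, was 0.62 for Sgcd (standard error 0.095, adjusted p = 0.000811), 0.67 for Sgca (0.112, adjusted p = 0.00136) and 0.50 for Dmd (0.099, adjusted p = 0.00392). Dtna had a slope of 0.51 (standard error 0.111, adjusted p = 0.00671). Sgcb lay at the threshold, with a slope of 0.22 (standard error 0.072, adjusted p = 0.0488), and missed it in 8 of the 10 repeats that left out 1 mouse.

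Utrn, Dag1 and Sspn had slopes near 0 and were not called. Utrn had a slope of 0.016 with an interval from -0.21 to 0.24, and its adjusted p was 0.937 in edgeR's test. Sspn had a slope of 0.048 with an interval from -0.11 to 0.20 (edgeR, adjusted p = 0.706). The interval of Dag1, from -0.35 to 0.32 around a slope of -0.011, was wider and overlapped those of Dmd, Sgcb and Dtna. The slope of Dag1 was 0.15 without Pax7Cre mouse 4 and 0.57 without both mice at the ends of the score. It was not called in either, but its slope near 0 depended on these mice. Differences between the slopes of the members were not tested. The median slope was 0.36 over the 8 members and -0.018 over all genes tested.

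**Figure D4:**
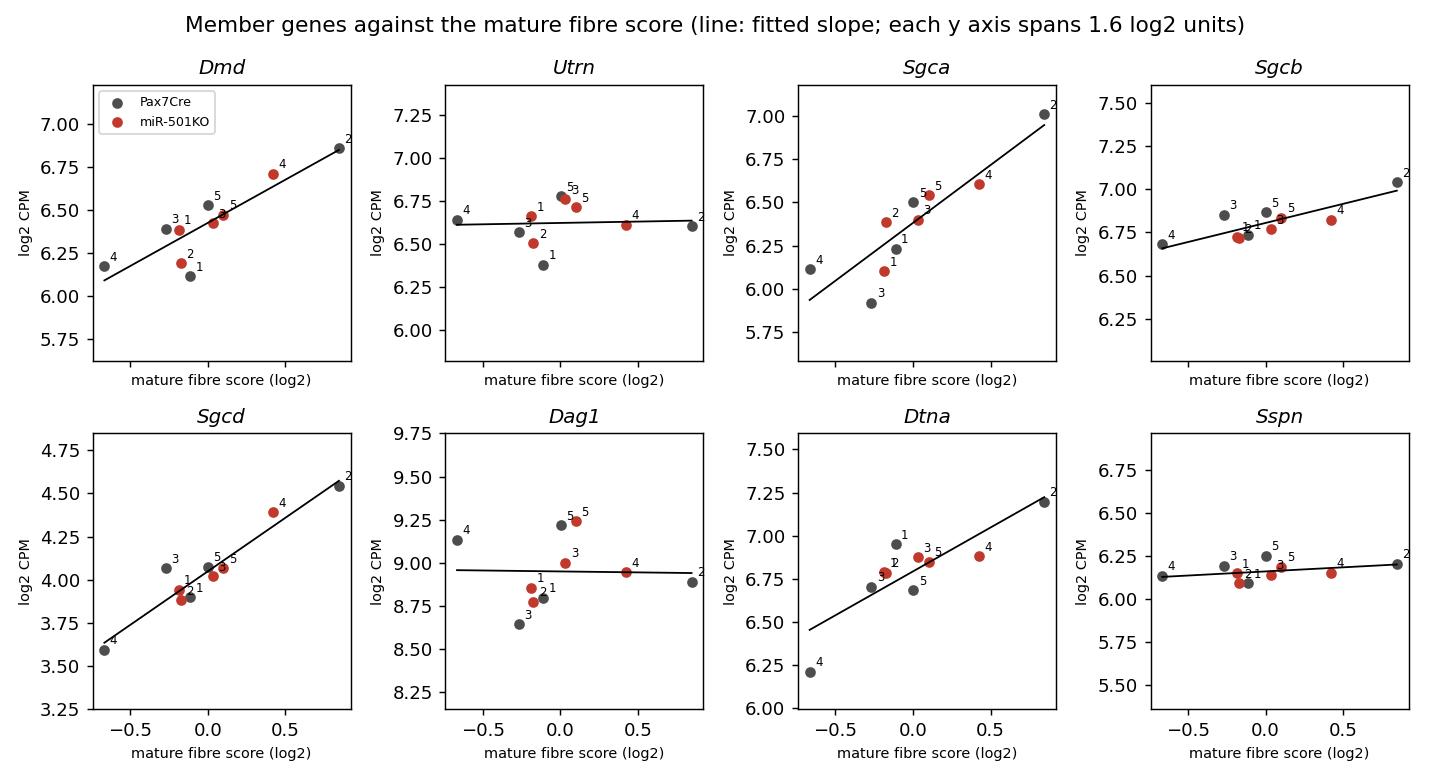
Log2 CPM of each member gene (vertical axis, each spanning the same width) against the mature fiber score of the mouse (horizontal axis, log2), with Pax7Cre mice in grey, miR-501KO mice in red, mouse numbers beside the points and the fitted slope as a line. Sgcd, Dmd, Sgca and Dtna climb with the score, with slopes of 0.50 to 0.67, whereas Utrn and Sspn run flat.

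The calls rested on few mice at the ends of the score, while most slopes kept their size. Without Pax7Cre mouse 2 the slopes were 0.50 for Dmd, 0.55 for Sgca, 0.20 for Sgcb, 0.72 for Sgcd and 0.54 for Dtna. None of the 5 was then called, with adjusted p in edgeR's test of 0.266, 0.281, 0.593, 0.0901 and 0.304, and over all genes the number rising fell from 1604 to 81 and the number falling from 905 to 1. Without Pax7Cre mouse 4 the slope of Dtna was 0.34, which narrowly missed the threshold in edgeR's test. Within the Pax7Cre mice alone the slopes were 0.46 for Dmd, 0.68 for Sgca and 0.59 for Sgcd. Within the miR-501KO mice alone they were 0.68, 0.63 and 0.78, and Dtna had 0.58 in Pax7Cre and 0.16 in miR-501KO mice. In the miR-501KO mice alone none of these 4 was called (edgeR, adjusted p = 0.129 for Dmd, 0.233 for Sgca, 0.147 for Sgcd and 0.728 for Dtna), and in the Pax7Cre mice alone Dmd was not called (edgeR, adjusted p = 0.0598). Whether the slopes differ between the genotypes was not tested. The share of reads on mitochondrial genes was lowest in Pax7Cre mouse 4, at 6.59%, and highest in Pax7Cre mouse 2, at 13.98%, and miR-501KO mouse 4, at 12.7%. In the other 7 mice it lay between 9.65% and 10.8% and did not rise with the score, and its part in the slopes was not tested.

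A second score, over 14 markers of regenerating fibers and differentiating myoblasts such as Myh3 (embryonic myosin heavy chain) and Myog (myogenin), gave slopes of the opposite sign. Dmd, Sgca, Sgcd and Dtna fell as this score rose, and 0 members rose. Over all genes outside the score, 7.74% rose and 11.9% fell. The slope was -1.38 for Sgcd (edgeR, adjusted p = 0.00205), -1.26 for Dtna (adjusted p = 0.00240), -1.03 for Dmd (adjusted p = 0.0161) and -1.30 for Sgca (adjusted p = 0.0168). Sgcb lay near the threshold, with a slope of -0.49 (adjusted p = 0.0586 in edgeR's test). It was called by DESeq2's Wald test (adjusted p = 0.0221) and by edgeR with no genotype term (adjusted p = 0.0346) or without Pax7Cre mouse 1 (adjusted p = 0.0492). Utrn, the member known from regenerating fibers, had a slope of 0.073 with an interval from -0.43 to 0.57, and Dag1 one of 0.35 with an interval from -0.38 to 1.08. This score spanned only -0.43 to 0.27, again between Pax7Cre mice 2 and 4. Of the 24 mature fiber markers, 22 fell with this score, and 8 of its own 14 markers fell with the mature fiber score. The 2 scores thus largely mirror each other, and slopes of opposite sign on them are not separate evidence. Without Pax7Cre mouse 2 the slopes were -0.54 for Sgca, -0.93 for Dmd, -1.74 for Sgcd, -1.68 for Dtna and 0.85 for Dag1. None of the 4 falling members was then called (edgeR, adjusted p from 0.0658 to 0.696), and over all genes 44 rose and 266 fell. Without Pax7Cre mouse 4 Dmd was not called either, with a slope of -1.16 and an adjusted p of 0.0575 in edgeR's test, and over all genes 386 rose and 895 fell.

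**Figure D5:**
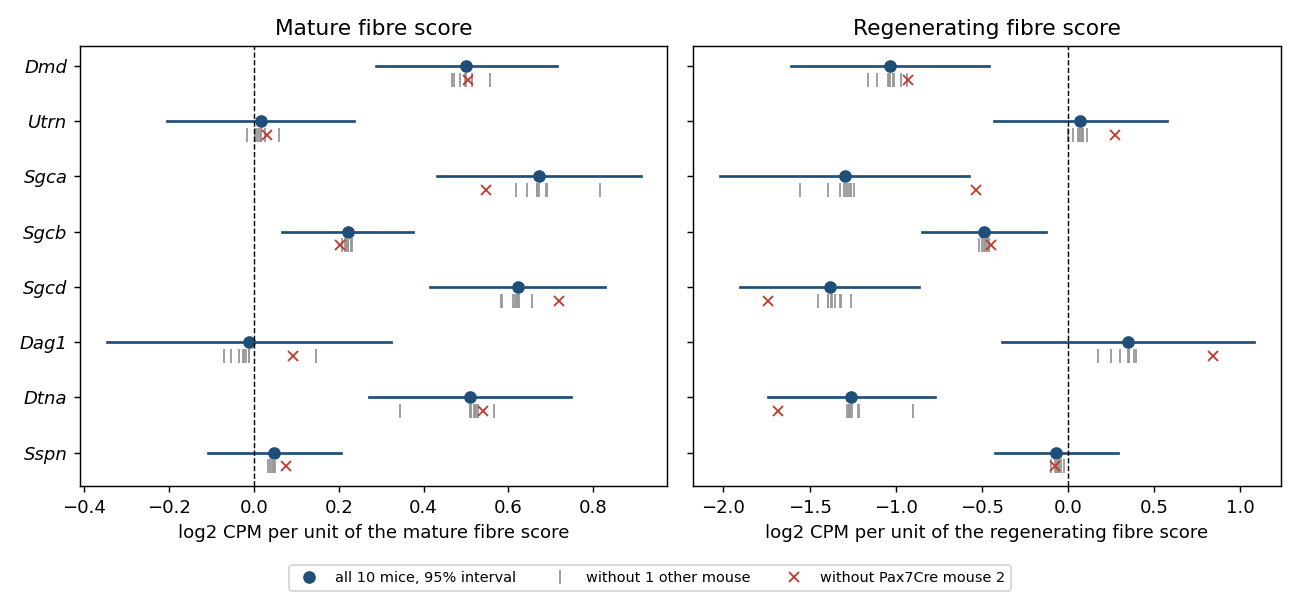
Slopes of the 8 member genes on the mature fiber score (left) and the regenerating fiber score (right), in log2 CPM per unit of the score, with 95% confidence intervals from all 10 mice (circles and lines) and the slopes when 1 mouse is left out (ticks, and crosses for Pax7Cre mouse 2). The slopes of Dmd, Sgca, Sgcb, Sgcd and Dtna keep their sign whichever mouse is left out, while the cross of Sgca on the right lies at -0.54, far from -1.30.

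The members were also set against each other over the 10 mice. Among the 5 that rose with the mature fiber score, Pearson's r of log2 CPM was 0.92 for Dmd and Sgcd, 0.87 for Sgcb and Sgcd, 0.86 for Dmd and Sgcb, and 0.75 for Dmd and Sgca. For Sgca it was 0.71 with Sgcb and 0.75 with Sgcd. With Dtna it was 0.55 for Dmd, 0.63 for Sgcb, 0.64 for Sgca and 0.78 for Sgcd. Sspn, which was not called, had an r of 0.71 with Sgcb and 0.66 with Dmd, as high as some pairs among the 5. Utrn was most like Dag1, with an r of 0.71, and its r with Dmd was 0.42. Dag1 and Dtna had the lowest r, -0.30. Without the 2 mice at the ends of the score, r was 0.90 for Dmd and Sgcd, 0.63 for Sgcb and Sgcd, 0.68 for Dmd and Sgcb, and 0.48 for Dmd and Sgca. For Sgca it fell to 0.20 with Sgcb and 0.47 with Sgcd. With Dtna it was then -0.20 for Dmd, -0.46 for Sgcb, 0.29 for Sgca and 0.034 for Sgcd. The likeness of Dtna to Dmd, Sgcb and Sgcd, and that of Sgca to Sgcb, therefore rested on these mice. Sspn had an r of 0.87 with Sgcb, 0.63 with Dmd and -0.68 with Dtna over the 8. Sgca and Dag1 had an r of 0.33 over the 10 mice and 0.75 over the 8. Utrn had an r of 0.73 with Dag1 and 0.68 with Dmd over the 8, and Dag1 and Dtna had -0.0093. These are descriptions over few libraries.

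For each member, the genes most like it over all genes tested were also taken. Sgca was near to Chchd10, a mitochondrial protein (r = 0.98), and Dtna was nearest to Ndufa9, a subunit of respiratory complex I (r = 0.98), and to Pvalb, a gene of the mature fiber score (r = 0.98). Dmd was nearest to Myh11, the smooth muscle myosin heavy chain (r = 0.98), and to Mrs2, a mitochondrial magnesium channel (r = 0.98). Sgcd was nearest to Kpna3 (r = 0.99) and Npc1l1 (r = 0.99), and Sgcb to Ppp3cb, a catalytic subunit of calcineurin (r = 0.96), and Mtus1 (r = 0.95). Outside this group, Utrn was nearest to Dgkh and Zbed6 (r = 0.93 each), Dag1 to Larp1 and Tmem131 (r = 0.97 each), and Sspn to Qk (r = 0.94) and Mgme1 (r = 0.92). Each of these genes was picked as 1 of the 2 with the highest r over 10 mice, so that no test is given. Over the 8 mice between the ends of the score the r of Dtna was 0.86 with Ndufa9 and 0.75 with Pvalb, that of Sgcb was 0.88 with Ppp3cb and 0.87 with Mtus1, and the other r named here were at least 0.91.

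The other genes of the complex and its partners were taken from lists of 48 genes, of which 45 were tested. None of the 45 had an unadjusted p under 0.05 between the genotypes in edgeR's quasi-likelihood test or DESeq2's Wald test, and 1, Nos1, did in edgeR's likelihood ratio test. Epsilon-sarcoglycan (Sgce), which is also made in other tissues, had a slope of -0.041 on the mature fiber score and a log2 fold change between genotypes of -0.046. Sgcz, zeta-sarcoglycan, had 0 reads in all mice.

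Among the genes of the cytoplasmic side, Drp2, a dystrophin-related protein of Schwann cells, fell by 0.30 per unit of the score (adjusted p = 0.0392 in edgeR's test). Its slope was -0.27 without Pax7Cre mouse 2 and -0.35 without Pax7Cre mouse 4, and it was called in neither (edgeR, adjusted p = 0.554 and 0.0673). Nos1, neuronal nitric oxide synthase, had the largest log2 fold change between genotypes of its list, -0.43 with an interval from -1.30 to 0.44. It ran from 23.8 to 56.8 CPM in Pax7Cre and from 8.69 to 44.0 CPM in miR-501KO mice, and without miR-501KO mouse 1, its lowest mouse, the log2 fold change was -0.20. Its unadjusted p was 0.000587 in edgeR's likelihood ratio test (adjusted p = 0.246) and 0.385 in DESeq2's Wald test. Sntg1 had 0 reads in all mice.

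Of 7 matrix ligands, 0 rose with the mature fiber score and 1, biglycan (Bgn), fell, by 0.41 per unit (edgeR, adjusted p = 0.0462), beside the 11.1% rising and 6.29% falling of all genes. The slope of Bgn was -0.27 without Pax7Cre mouse 2 and -0.41 without Pax7Cre mouse 4, and it was called in neither (edgeR, adjusted p = 0.706 and 0.104). Agrin (Agrn), which clusters acetylcholine receptors, had the largest fold change between genotypes of this list, a log2 value of 0.074, which was 0.0012 without miR-501KO mouse 3. Of 17 genes for the glycosylation of alpha-dystroglycan, B3galnt2 rose, with a slope of 0.54 (adjusted p = 0.00174 in edgeR's test), and 0 fell. Without Pax7Cre mouse 2 its slope was 0.48 and not called (edgeR, adjusted p = 0.268). Pomgnt2, an early enzyme of the laminin-binding sugar chain, had a log2 fold change between genotypes of -0.23 (unadjusted p = 0.103 from edgeR, exact permutation p = 0.0952). It was -0.15 without Pax7Cre mouse 5 and -0.15 without miR-501KO mouse 2. Of 12 genes of the costamere and its integrin link, Synm, the intermediate filament protein synemin, rose with a slope of 1.20 (edgeR, adjusted p = 6.08e-05), the steepest of these lists, and 0 fell. Without Pax7Cre mouse 2 the slope of Synm was 1.06 and not called (edgeR, adjusted p = 0.0592). Krt18 of the same list had a log2 fold change between genotypes of -0.26, with an interval from -0.96 to 0.43, and Krt19 had 87 reads over all mice and was not tested.

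Markers of the other cells in the muscle were read in the same way, since Dmd and Utrn are also made outside fibers. The 7 smooth muscle and pericyte markers were all detected, with summed levels of 1142 to 1462 CPM in Pax7Cre and 1323 to 1580 CPM in miR-501KO mice. With the mature fiber score 1 of them rose and 2 fell. The 7 endothelial markers summed to 638 to 791 CPM in Pax7Cre and 637 to 800.5 CPM in miR-501KO mice, and 1 rose with the score. The 8 macrophage markers summed to 5950.1 to 7969 CPM in Pax7Cre and 6075 to 7228 CPM in miR-501KO mice, and 1 fell with the score. The 7 fibroblast markers summed to 14043 to 18956 and 14942 to 18069 CPM, and the 7 Schwann cell markers to 129 to 153 and 126 to 147 CPM, in the same order of groups, with 2 and 1 rising. These counts stand beside the 11.1% of all genes that rose and the 6.29% that fell with the score, and without Pax7Cre mouse 2 they were 0 in each of these 5 lists. Without Pax7Cre mouse 4, 1 smooth muscle and pericyte marker rose and 2 fell, 1 endothelial and 2 Schwann cell markers rose, and 0 fibroblast and 0 macrophage markers were called. No marker of these lists was at 0 in all mice, and none differed between the genotypes at an unadjusted p under 0.05. Their part in the values of the member genes was not tested.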

How the data were processed

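RNA was taken from TA muscle of 10 mice, 5 per genotype, 6 days after CTX. According to the methods and the submitters' processing notes, stranded mRNA libraries were read as 100 bp single ends, aligned with STAR to GRCm38.p5 and counted with featureCounts. The strand setting is not given in the sources used here. The authors deposited raw counts per Ensembl gene and mouse, without normalization. Of 25700 genes listed, 25664 were in GENCODE release M21, and depth was 18609222 to 24753258 counts per mouse.

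TMM factors were computed with edgeR 4.0.16 in R 4.3.3, which kept 14410 genes with filterByExpr (minimum count 10, minimum total count 15) and ran quasi-likelihood tests of genotype and of each score with genotype as covariate. Adjusted p-values (Benjamini-Hochberg, over all genes tested) were called under 0.05. The scores used log2 CPM with a prior count of 2. Intervals are 95% intervals from the fit. Exact permutation tests used scipy 1.17.1. The steps were tested on simulated data.

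The member genes and gene lists were chosen with earlier results of these data known. Named genes are all 8 members and, per list of other genes, those with an unadjusted p under 0.05 between genotypes and the one with the largest absolute fold change. Synm, B3galnt2, Drp2 and Bgn were named after their slopes were seen. Some genes of these lists are not reported here. Alternatives were DESeq2 size factors, DESeq2 1.42.0, edgeR's likelihood ratio test, robust fitting, other filters, a replicate block, the score as covariate, no genotype term, another gene length and leaving out each mouse. Leaving out both mice at the ends of the score, each genotype alone, and the slopes of other genes, marker counts and correlations without these mice, were added after seeing the data.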

Additional observations from a re-analysis of the deposited data

Results flagged for a closer look

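The spread within each genotype was searched for a single mouse far from the other 4 in 19 quantities, the member genes, 8 other genes, the Utrn to Dmd ratio and both scores, which makes 38 groups. Chance flags about 1 in 20 such groups, or 1.9 here, and 2 were found, both in miR-501KO mouse 4. Its Utrn to Dmd ratio was 0.935, where the other 4 miR-501KO mice had 1.18 to 1.26. Its Synm level was 156 CPM, where the others had 86.4 to 101 CPM. The mature fiber score of this mouse, 0.42, was the highest among the miR-501KO mice, and the share of its reads on mitochondrial genes was 12.7%.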

How the results depend on the processing

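The precision is limited by 5 mice per genotype and by depth, with at least 301 reads of each member per mouse, and the calls on the scores rest on few mice. No alternative called a member between the genotypes. Without each mouse in turn, the number of genes called stayed at 0, those higher at an unadjusted p under 0.05 ran from 39 to 267 and those lower from 59 to 242. Log2 fold changes then ran from -0.065 to 0.13 for Dmd, from -0.087 to 0.21 for Sgca, from -0.095 to 0.15 for Sgcd, from 0.0029 to 0.10 for Utrn, from -0.057 to 0.094 for Dag1, from -0.063 to 0.17 for Dtna, from -0.078 to 0.0021 for Sgce, from 0.0012 to 0.12 for Agrn, from -0.28 to -0.15 for Pomgnt2, from -0.46 to 0.088 for Krt18 and from -0.20 to -0.68 for Nos1. The difference in the log2 Utrn to Dmd ratio ran from -0.076 to 0.11. Slopes on the mature fiber score ran from -0.017 to 0.058 for Utrn and from -0.070 to 0.15 for Dag1. The genes rising with that score ran from 81 to 1759 and those falling from 1 to 1229, and with the regenerating fiber score from 44 to 1432 and from 266 to 1873.

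The likelihood ratio test called 19 genes between the genotypes and put 123 higher at an unadjusted p under 0.05. Without a filter 153 were higher and 159 lower, with at least 10 counts in every mouse 36 were higher, and with the mature fiber score as a covariate 241 were higher and 167 lower. In that last fit the log2 fold changes of Dmd, Sgca and Sgcd were -0.020, -0.0064 and -0.024. Leaving out both mice at the ends of the score gave 279 higher and 252 lower, 96 rising and 2 falling with the mature fiber score, and 0 either way with the regenerating fiber score, a slope of 0.57 for Dag1 on the first and of 0.15 for Sspn on the second. On the mature fiber score it left slopes of 0.64 for Dmd, 0.83 for Sgca, 0.67 for Sgcd and 0.14 for Dtna, none of them called (edgeR, adjusted p = 0.274, 0.178, 0.249 and 0.834). In Pax7Cre mice alone 792 genes rose and 328 fell with the mature fiber score, and 379 rose and 861 fell with the regenerating one. In miR-501KO mice alone the numbers were 105 and 4, then 0 and 0, with a slope for Dag1 of 0.31 on the mature fiber score and slopes for Utrn and Dag1 of -0.14 and -0.14 on the regenerating one. The causes of these changes were not tested, beyond the fewer mice. With the longest transcript as length, Dmd, Utrn, Sgcd, Dtna and Sspn stood at 5.83, 7.98, 3.77, 17.8 and 15.9 CPM per kilobase. Sgcb on the mature fiber score lost its call in 9 of 11 other settings (adjusted p up to 0.764 in edgeR's tests).

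The correlations of the deviations of equally numbered mice were 0.34, -0.15, 0.16, -0.30 and 0.20. They were above 0.1 in 3 of 5 pairs, those of mice 1, 3 and 5, for which the equal number was also the best match, and the numbers were not taken as pairs because this did not hold for all 5. A replicate block of equal numbers put 87 genes higher and 102 lower at an unadjusted p under 0.05 and called 0. It gave Dag1 a slope of 0.0028 on the mature and Utrn one of -0.060 on the regenerating fiber score, left Sgcb uncalled (adjusted p = 0.135 in edgeR's test), and left the Utrn to Dmd difference at 0.032 (exact sign-flip permutation, p = 0.688). It changed no other call of a member.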
